A study of Homo sapiens with 4 samples.

Results

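The RNA levels of 10 α- and β-tubulin genes were compared between imatinib-sensitive TF1-BA cells and imatinib-resistant TF1-BAR cells. The genes were taken by symbol from the expression table and comprise 4 α-tubulins (TUBA1A, TUBA1B, TUBA1C and TUBA4A) and 6 β-tubulins (TUBB, TUBB2A, TUBB2B, TUBB3, TUBB4B and TUBB6) among the 32673 genes listed. TF1 is a human erythroleukaemia cell line that grows on granulocyte-macrophage colony-stimulating factor (GM-CSF). TF1-BA cells were infected with a retrovirus that brings the fusion kinase p210 BCR-ABL. Growing them for 6 months in imatinib, an inhibitor of the ABL kinase, gave the TF1-BAR line. Each cell line gave 2 libraries, each made from 10000000 cells by the labels. TF1-BAR cells were cultured with 2 μM imatinib, and whether the cells were still in the drug at RNA extraction is not stated. Both cell lines grew with GM-CSF, at 2 ng/ml by the labels and 20 ng/mL by the methods. The sample titles call both resistant libraries VECTOR, while another label gives their cells as TF1-BAR, the name used here. If these cells carried a vector, its effect cannot be told apart from that of resistance. Each line is 1 derivative, the 2 libraries of a line are not stated to be separate cultures, and p-values then measure only the spread between these libraries.

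α- and β-tubulin pair as heterodimers, which assemble head to tail into the hollow microtubules that form the mitotic spindle and the tracks for motor proteins. Humans carry several genes, called isotypes, for each kind, which differ most at the C-terminal tail and in the tissues that use them. Cells hold the amount of tubulin in check by autoregulation, in which the factor TTC5 recognises the first residues of a nascent tubulin chain on the ribosome and, with SCAPER and the CCR4-NOT complex, starts decay of its mRNA. SETD2, the histone H3 lysine 36 methyltransferase that the study is about, also methylates α-tubulin at lysine 40, the residue that ATAT1 acetylates. The C-terminal tyrosine of α-tubulin is removed by the vasohibins VASH1 and VASH2 with SVBP, or by MATCAP1, and is put back by TTL.

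The coding sequences show whether each α-tubulin gene encodes lysine 40. They are those of the MANE Select transcripts in GENCODE 44 on GRCh38. Codon 40 is a lysine codon in all 4 α-tubulin genes, and the bases of codons 37 to 43 are the same in TUBA1A, TUBA1B and TUBA1C. The capitals mark codon 40.
TUBA1A, chr12:49186708-49186728, minus strand: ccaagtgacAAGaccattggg
TUBA4A, chr2:219252105-219252125, minus strand: cccagtgacAAGaccattggt

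The first 12 coding bases, which encode the residues that autoregulation reads, took 2 forms among the α-tubulins and 4 among the β-tubulins. ATGCGTGAGTGC opens TUBA1A, TUBA1B and TUBA1C, and ATGCGTGAATGC opens TUBA4A. Among the β-tubulins, TUBB and TUBB4B share ATGAGGGAAATC, TUBB3 and TUBB6 share ATGAGGGAGATC, TUBB2A opens with ATGCGCGAGATC and TUBB2B with ATGCGTGAGATC.

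The values deposited are FPKM, that is, fragments scaled to gene length and to library size, so levels of different genes are per length. The gene lengths behind the FPKM exceed those of the MANE Select transcripts unequally, such as 1727 against 1616 bases for TUBB2A and 3574 against 1627 for TUBA1B. Ratios and the order between genes thus depend on the lengths used, while the FPKM ratio between the cell lines for 1 gene does not. Its log2 fold change, taken after adding 0.5 FPKM, depends on them slightly, which matters for TUBA1A, whose value lay near 1. The fragments behind the FPKM values were recovered as whole numbers, and the libraries held between 15465497 and 18042299 fragments. The 10 tubulin genes together took 0.1560% and 0.1505% of the fragments in TF1-BA and 0.1261% and 0.1203% in TF1-BAR. Differences were tested with limma on log2(FPKM + 0.5) of all genes whose mean reached 0.5 FPKM, and 9 of the 10 genes were among the 15519 tested. A gene counts as called when its log2 fold change, TF1-BAR over TF1-BA, is at least 1 in size and its p, adjusted over all genes tested by the Benjamini-Hochberg method, is under 0.05. Of all genes tested, 3.05% were called higher and 1.69% called lower in TF1-BAR cells, and 474 higher and 263 lower calls became 359 and 338 after quantile normalization. Without the fold threshold, 16.3% were higher and 10.5% lower, and the median log2 fold change of all genes tested was 0.07. This balance depends on the scaling: the 2537 higher and 1630 lower became 1892 and 2223 with upper-quartile scaling, 2042 and 1938 after quantile normalization, and 3182 and 1354 after rescaling to TPM. In bulk RNA, fewer cells of a type and less RNA per cell cannot be told apart.

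All 8 markers of TF1-like progenitors were above the filter, with a summed level of 293 to 297 FPKM in TF1-BA cells and 378 to 402 in TF1-BAR cells. By the adjusted p, 4 of the 8 were higher and 0 lower, while CSF2RA (log2 fold change -0.19), GATA1 (-0.14) and KLF1 (-0.34, with an adjusted p of 0.0133 by limma voom) were below TF1-BA in both TF1-BAR libraries. Megakaryocyte markers summed to 147 to 155 FPKM and 197 to 220.2 FPKM, with 5 of the 6 reported genes above the filter and PPBP near 0. Most of that sum was ITGA2B (119.8 and 128.3 FPKM in TF1-BA, 158.5 and 175.8 in TF1-BAR), and of the 5 genes 3 were higher and 1 lower by the adjusted p, the lower one being TUBB1. Neuronal markers stayed between 1.12 and 1.19 FPKM in sum, 1 of 6 analysed genes (SYN1) being above the filter. The lymphoid markers summed to 22.3 to 24.2 FPKM in TF1-BA and 10.2 to 10.5 in TF1-BAR, with 3 of 5 above the filter, NCAM1 listed at 0 and CD3E at or near 0. CD3D made up most of the lymphoid sum (19.2 and 20.7 FPKM in TF1-BA, 5.74 and 6.36 in TF1-BAR), while CD79A was higher in TF1-BAR (log2 fold change 0.61, limma adjusted p = 0.0260, but 0.0700 to 0.139 when 1 library was left out). Of these markers, CD34, KIT and GP1BA were called higher and CD3D lower. Of the fibroblast and epithelial markers, KRT8 and KRT18 alone were above the filter, and the sum was 41.6 to 44.7 and 67.9 to 68.4 FPKM. The part of these markers in the tubulin results was not tested.

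TUBB, the main β-tubulin of dividing cells, was the most abundant tubulin RNA in both cell lines, and TUBB4B, a β-tubulin expressed in most tissues, came next. Relative to the TF1-BA cells, TF1-BAR cells held less RNA of TUBB2A, TUBB2B, TUBB4B and TUBA1C and more of TUBA1A. Of the 9 genes tested, 1 was called lower (TUBB2A) and 0 called higher, against the shares of 1.69% and 3.05% of all genes. With the adjusted p alone, 4 were lower and 1 was higher, against 10.5% and 16.3%. Without TF1-BA replicate 1 or without TF1-BA replicate 2 there was 1 gene lower and 1 higher by the adjusted p. Over all genes the 2537 higher and 1630 lower likewise became 335 and 196 without the former, 344 and 174 without the latter, and 795 and 703 without TF1-BAR replicate 2. On the edge of the fold threshold, TUBA1A was called higher when the FPKM were rescaled to TPM, with a pseudocount of 0.1 FPKM, with limma voom on the recovered fragments, or without TF1-BAR replicate 1. The median log2 fold change of the 9 genes was -0.27.

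**Figure D1:**
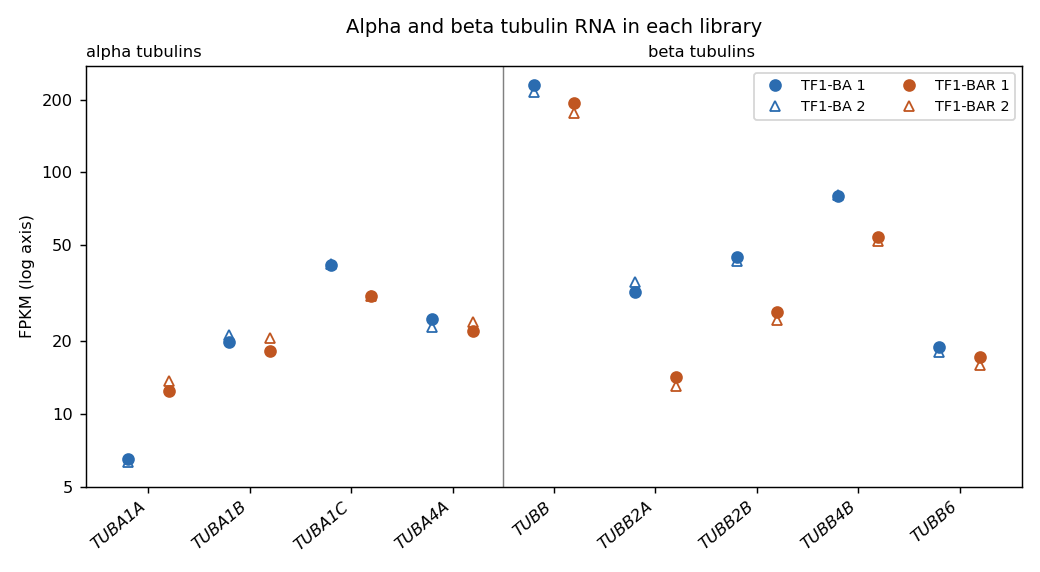
FPKM of 9 α- and β-tubulin genes in each of the 4 libraries, on a log axis, with TF1-BA in blue, TF1-BAR in orange, filled circles for replicate 1 and open triangles for replicate 2. TUBA1A alone has both TF1-BAR libraries above both TF1-BA libraries, and TUBB3, at 0 in both TF1-BA libraries, is not drawn.

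TUBA1A encodes the α-tubulin best known from developing neurons, where its mutations cause cortical malformations. It lies on the minus strand of chromosome 12 (GRCh38, 49184796 to 49189324). TF1-BA cells held 6.48 and 6.29 FPKM of its RNA, and TF1-BAR cells 12.4 and 13.7 FPKM. Both TF1-BAR values were above both TF1-BA values, as in 40.9% of all genes tested. The mean rose from 6.39 ± 0.132 to 13.1 ± 0.858 FPKM (SD, n = 2 each), a log2 fold change of 0.98 ± 0.082 (SE, limma adjusted p = 0.00534), and 3.98% of all genes tested rose by more. The values rest on 400 and 333 fragments in TF1-BA and 671 and 751 in TF1-BAR. The adjusted p stayed under 0.05 in all 10 alternative settings and without any 1 library, with log2 fold changes from 0.89 to 1.04.

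TUBA1C, a widely expressed α-tubulin, lies beside TUBA1A on the plus strand (49188736 to 49274603), and the ends of both genes overlap in the coordinates of the table. TUBA1C was the most abundant α-tubulin, at 41.2 and 41.9 FPKM in TF1-BA and 30.7 and 30.9 FPKM in TF1-BAR. The groups did not overlap, and TF1-BAR was lower by a log2 fold change of -0.43 ± 0.058 (SE, limma adjusted p = 0.0113). Without TF1-BA replicate 1 or TF1-BA replicate 2 its adjusted p was past 0.05, at up to 0.106. Over the 4 fits that leave out a library the log2 fold change stayed between -0.44 and -0.42. The ratio of TUBA1A to TUBA1C FPKM was thus 0.1572 and 0.1501 in TF1-BA and 0.405 and 0.443 in TF1-BAR. In GENCODE 44, 10.8% of the exon bases of TUBA1A and 22.7% of those of TUBA1C are shared with exons of other genes, including each other, and the use of strand in counting is not stated beyond the default parameters of the pipeline. Of the 150-base windows of the transcript, the read length, 8.01% in TUBA1A, 7.22% in TUBA1C and 19.1% in TUBA1B occur letter for letter in another of these 3 genes, so their separate levels, shares and ratios are uncertain to that extent.

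For TUBA1B and TUBA4A the libraries of the cell lines overlapped. TUBA1B, the α-tubulin found in nearly all cells (chromosome 12, 49127782 to 49131397, minus strand), was at 19.9 and 21.2 FPKM in TF1-BA and 18.3 and 20.6 FPKM in TF1-BAR. Its log2 fold change was -0.08 with a 95% interval of -0.30 to 0.14 (limma adjusted p = 0.513). TUBA4A, an α-tubulin of platelets and neurons (chromosome 2, 219249711 to 219278170, minus strand), was at 24.6 and 22.8 FPKM and 22.0 and 24.02 FPKM. Its log2 fold change was -0.04, with an interval of -0.25 to 0.16 (adjusted p = 0.723), and turned to 0.0248 when the FPKM were rescaled to TPM. The exons of TUBA1B share 43.96% of their bases with the antisense gene TUBA1B-AS1, whose own row reached 0.0778 FPKM at most.

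Among the β-tubulins, TUBB2A fell most. It encodes a β-tubulin abundant in brain and lies on the minus strand of chromosome 6 (3153669 to 3157526). Its level was 31.9 and 35.2 FPKM in TF1-BA and 14.2 and 13.04 FPKM in TF1-BAR. The TF1-BA values were all above the TF1-BAR values, and the mean fell from 33.6 ± 2.31 to 13.6 ± 0.832 FPKM (SD, n = 2 each). The log2 fold change was -1.27 ± 0.085 (SE, limma adjusted p = 0.00405), and 1.09% of all genes tested had a lower one. It was called lower in all 10 alternative settings and without any 1 library, with log2 fold changes from -1.36 to -1.20.

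TUBB2B, whose product is close to that of TUBB2A and is known from neuronal migration, lies 66.7 kb away on the same strand (3224261 to 3231730). It was at 44.6 and 42.9 FPKM in TF1-BA and 26.5 and 24.5 FPKM in TF1-BAR, again without overlap. The log2 fold change was -0.77 ± 0.071 (SE, limma adjusted p = 0.00597). The coding sequences of these neighbours are identical at 98.1% of positions, the closest pair among the β-tubulins, which otherwise range down to 81.0%. Of all 150-base windows of the transcript, 48.7% in TUBB2A and 41.6% in TUBB2B occur letter for letter in a transcript of another gene, mostly the other of the pair. How the authors' counting split such reads is not stated beyond default parameters, so the separate values of TUBB2A and TUBB2B are uncertain. Their sum was 76.5 and 78.0 FPKM in TF1-BA and 40.8 and 37.5 FPKM in TF1-BAR, 0.507 times as high in TF1-BAR. Within it, the ratio of TUBB2A to TUBB2B was 0.716 and 0.821 in TF1-BA and 0.536 and 0.532 in TF1-BAR.

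TUBB4B (chromosome 9, 137241213 to 137243707, plus strand) has no such copy, since 0% of its windows were found elsewhere. Its level was 79.7 and 80.6 FPKM in TF1-BA and 54.2 and 51.8 FPKM in TF1-BAR. The groups were apart, with a log2 fold change of -0.59 ± 0.058 (SE, limma adjusted p = 0.00662), carried by 3034 and 2633 fragments in TF1-BA and 1804 and 1757 in TF1-BAR. Leaving out TF1-BA replicate 1 or TF1-BA replicate 2 raised the adjusted p of TUBB2B to as much as 0.0556 and that of TUBB4B to as much as 0.0653. Over the 4 fits that leave out a library, the log2 fold change was -0.82 to -0.71 for TUBB2B and -0.63 to -0.56 for TUBB4B.

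TUBB (chromosome 6, 30720201 to 30725426, plus strand) was at 231 and 215 FPKM in TF1-BA and 194 and 176 FPKM in TF1-BAR. All TF1-BAR values were lower, but the log2 fold change of -0.27 ± 0.076 (SE) missed the threshold (limma adjusted p = 0.0579). The adjusted p ranged from 0.0321 to 0.158 over the 10 alternative settings and was under 0.05 in 4 of them. It was also under it with limma voom on the recovered fragments (0.0134), and past it in each of the 4 fits that leave out a library (0.0505 to 0.306). TUBB6, a β-tubulin of many tissues (chromosome 18, 12307669 to 12344320, plus strand), was at 18.9 and 18.1 FPKM and 17.3 and 15.9 FPKM. Here too both TF1-BAR values were lower, with a log2 fold change of -0.15 and an interval of -0.35 to 0.04 (adjusted p = 0.194). Exons of genes on the opposite strand cover 13.5% of the exon bases of TUBB (mainly MDC1, at 15.4 to 21.1 FPKM) and 21.2% of those of TUBB6 (AFG3L2, at 9.33 to 10.04 FPKM), so without strand their values are uncertain, as are those of TUBA4A beside STK16. Both libraries of TF1-BAR lying below both of TF1-BA was itself common, at 28.4% of all genes tested, and held for 6 of the 9 tubulin genes.

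TUBB3, the β-tubulin used as a marker of neurons and, in tumours, often discussed with resistance to taxanes, was at or near 0. The table lists 0 FPKM in both TF1-BA libraries and 0.0286 and 0.0702 FPKM in the TF1-BAR libraries. These correspond to as few as 0, 0, 2 and 5 fragments, against a floor of 3 fragments, so no fold change is given. TUBB3 lies on the plus strand of chromosome 16 (89921392 to 89938761). In GENCODE 44, 92.3% of the windows of its transcript occur in the transcript of another gene, all of them in a readthrough gene at the same place that was not analysed here, so its level is uncertain.

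**Figure D2:**
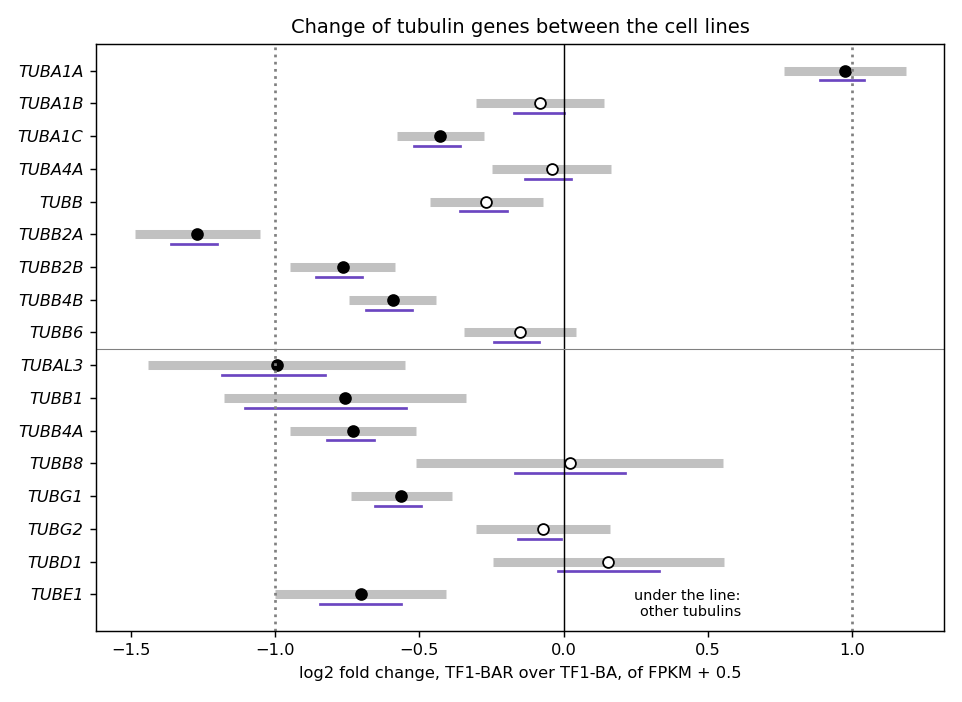
log2 fold change of each tubulin gene tested, TF1-BAR over TF1-BA, with its 95% interval as a grey bar, a filled point where the adjusted p is under 0.05, and in purple the range over the alternative settings and without each library. TUBB2A at -1.27 lies past the dotted line at -1, and TUBA1A at 0.98 just short of the line at 1.

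Summed over the family, α-tubulin RNA was at 92.2 FPKM in both TF1-BA libraries and at 83.4 and 89.1 FPKM in the TF1-BAR libraries. β-tubulin RNA was at 406 and 391 FPKM and at 307 and 281 FPKM. In TF1-BAR the α-sum was 0.935 times and the β-sum 0.737 times that of TF1-BA. The ratio of β to α was 4.41 and 4.24 in TF1-BA and 3.67 and 3.16 in TF1-BAR, without overlap. With 2 libraries against 2, an exact two-sided permutation test cannot go below p = 0.333, the value found for all 3 of these quantities. After rescaling to TPM the α-sums of the cell lines overlapped, at 90.0 and 90.1 against 85.2 and 91.6. The ratio of β to α also depends on the lengths used: with the recovered fragments divided by the MANE Select transcript length it was 3.13 and 3.01 in TF1-BA and 2.60 and 2.23 in TF1-BAR.

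The make-up of each family shifted between the cell lines. TUBA1A made up 7.03% and 6.83% of α-tubulin FPKM in TF1-BA and 14.9% and 15.3% in TF1-BAR. The share of TUBA1C was 44.7% and 45.5% in TF1-BA and 36.8% and 34.6% in TF1-BAR. TUBA1B kept to between 21.6% and 23.1%, and TUBA4A to between 24.7% and 26.96%, in all 4 libraries. In the β-family, TUBB took 56.9% and 54.8% in TF1-BA and 63.4% and 62.6% in TF1-BAR. TUBB2A went from 7.86% and 8.99% to 4.64% in both TF1-BAR libraries, and TUBB2B from 10.97% and 10.95% to 8.66% and 8.71%. TUBB6, with 4.64% and 4.62% against 5.63% and 5.65%, took a larger share although its own level was no higher. Shares depend on the lengths used: with the MANE Select length, that of TUBB6 was 7.62% and 7.59% against 9.09% and 9.12%. The shares of a family add to a fixed total, so they are not independent of each other, and for each the smallest p of 0.333 applies.

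**Figure D3:**
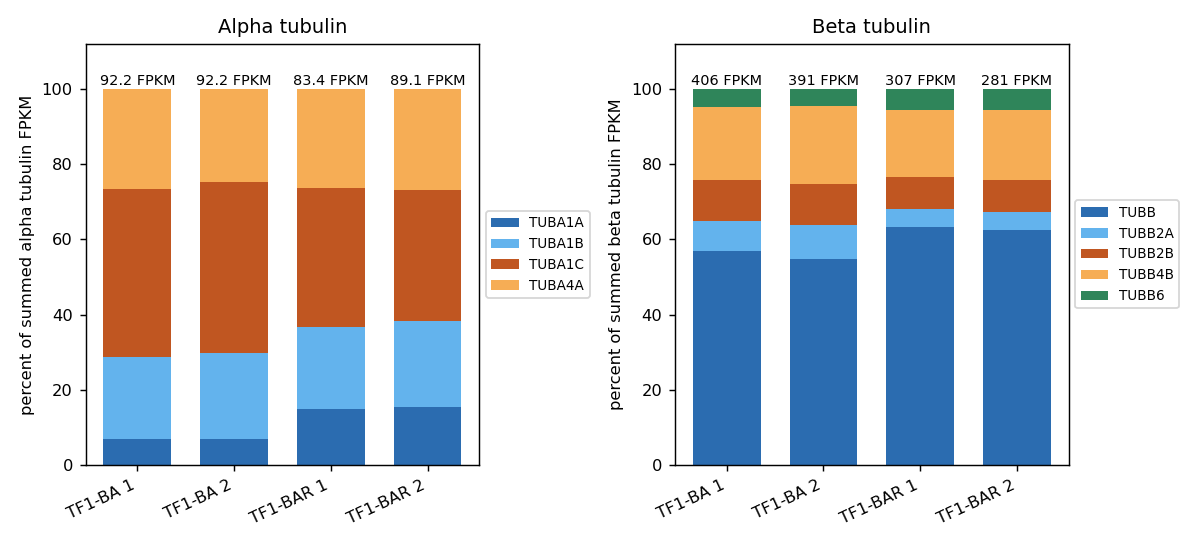
Share of each gene in the summed FPKM of α-tubulin (left) and β-tubulin (right) in each library, in percent, with the sum in FPKM above each bar. TUBA1A widens from 7.03% and 6.83% to 14.9% and 15.3% in the TF1-BAR libraries, and TUBB2A, the second block from the bottom on the right, narrows.

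In order of level, TF1-BA cells had TUBB, TUBB4B, TUBB2B, TUBA1C, TUBB2A, TUBA4A, TUBA1B, TUBB6, TUBA1A and TUBB3, and no neighbours in this order overlapped in their 2 libraries. TF1-BAR cells had TUBB, TUBB4B, TUBA1C, TUBB2B, TUBA4A, TUBA1B, TUBB6, TUBB2A, TUBA1A and TUBB3. There TUBB2A, at 13.04 to 14.2 FPKM, and TUBA1A, at 12.4 to 13.7 FPKM, were not separated by their spread, and neighbouring genes elsewhere in the order did not overlap. With the recovered fragments divided by the MANE Select length the order changed. In TF1-BA it became TUBB, TUBB4B, TUBA1C, TUBB2B, TUBA4A, TUBA1B, TUBB6, TUBB2A, TUBA1A and TUBB3, with TUBA1C (67.6 and 68.8 FPKM) above TUBB2B (50.9 and 48.9). TUBA4A (49.0 and 45.4) then overlapped both TUBB2B and TUBA1B (43.7 and 46.5), and TUBB2A (34.1 and 37.6) fell below TUBB6 (41.4 and 39.6). In TF1-BAR it became TUBB, TUBB4B, TUBA1C, TUBA4A, TUBA1B, TUBB6, TUBB2B, TUBA1A, TUBB2A and TUBB3, with TUBA1A (25.5 and 27.9 FPKM) now apart from TUBB2A (15.2 and 13.9), and TUBA4A overlapping TUBA1B. TUBB and TUBB4B led with either length. The pseudogenes of the family contributed little: 13 entries summed to between 2.82 and 3.80 FPKM in a library, and TUBBP1 and TUBB8P2 alone reached 1 FPKM in any of them.

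Sequences just before the transcription start were read from RefSeq (GRCh38.p14), which held 15 starts for the 10 genes. They are shown for TUBA1A, which rose, and for the 3 β-tubulins that fell. Motifs were searched on both strands in the 250 bases before each start: the TATA box (TATAA), the CCAAT box (CCAAT), the GC box (GGGCGG), the E box (CACGTG), the core of the cAMP response element, CRE (TGACG), and the full CRE (TGACGTCA), which contains the core on each strand. The 150 bases before the start are printed, with motif letters in capitals.
TUBA1A, chr12:49189081-49189230, minus strand: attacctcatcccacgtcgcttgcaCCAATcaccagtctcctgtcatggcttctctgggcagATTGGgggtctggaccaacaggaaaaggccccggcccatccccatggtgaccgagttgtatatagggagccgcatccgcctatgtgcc
TUBB2A, chr6:3157545-3157694, minus strand: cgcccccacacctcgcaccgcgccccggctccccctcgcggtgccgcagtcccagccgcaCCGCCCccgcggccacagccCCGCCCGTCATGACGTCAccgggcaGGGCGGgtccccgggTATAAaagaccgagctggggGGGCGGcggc
TUBB2B, chr6:3227654-3227803, minus strand: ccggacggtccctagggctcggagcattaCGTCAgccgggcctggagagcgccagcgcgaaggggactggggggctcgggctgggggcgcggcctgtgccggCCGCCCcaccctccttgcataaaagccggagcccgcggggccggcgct
TUBB4B, chr9:137241137-137241286, plus strand: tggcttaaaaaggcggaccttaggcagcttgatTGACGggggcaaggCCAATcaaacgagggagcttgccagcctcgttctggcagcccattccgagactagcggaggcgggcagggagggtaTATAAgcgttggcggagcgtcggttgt

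Each of the 3 β-tubulin promoters holds a CRE core, as does 1 of those of TUBB, and none of the starts of the other 6 genes does, TUBA1C, which also fell, included. These are 4 of the 15 tubulin promoters, and the core occurs in 21.2% of 35093 promoters. TUBB2A also holds the full CRE, found in 1.65% of promoters, with 3 cores that begin at -65, -60 and -57 counted from the start. TUBA1A holds 2 CCAAT boxes, which begin at -125 and -88. The CCAAT box was found in 9 of the 15 tubulin promoters, at starts of 7 of the 10 genes, among them TUBB2B, TUBB4B and TUBA1C, which fell, and in 32.0% of all promoters. TUBB2A and TUBB2B, so alike in their coding parts, differ here in the letters searched. TUBB2A has TATAA at -30, while TUBB2B has no exact TATAA but reads cataaaa near the same place. A TATA box was found in 5 of the 15 tubulin promoters, against 18.9% of all promoters. The GC box was found in 9 of the 15, at starts of 8 of the 10 genes, against 42.6% of all promoters. The E box was found in 2 of the 15, against 6.34%. Such matches are a description of these letters and were not tested for binding.

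TUBB4A, a β-tubulin best known from brain and not among the 10 genes, had the smallest adjusted p of the other tubulins. It was at 13.6 and 14.2 FPKM in TF1-BA and 8.64 and 7.75 FPKM in TF1-BAR, with a log2 fold change of -0.73 (limma adjusted p = 0.0086). TUBG1, the main γ-tubulin, from which new microtubules grow, was at 18.8 and 19.5 FPKM and 12.6 and 13.03 FPKM, a log2 fold change of -0.56 (adjusted p = 0.00902). The ε-tubulin gene TUBE1, needed for centriole structure, had a log2 fold change of -0.70 (adjusted p = 0.0166). The log2 fold change of TUBAL3 was -0.99 (adjusted p = 0.0192) and that of TUBB1, the β-tubulin of platelets, -0.76 (adjusted p = 0.0304). These were 5 lower and 0 higher of 8 tested by the adjusted p, against 10.5% and 16.3% of all genes. None was past the fold threshold. At an unadjusted p under 0.05 or with limma voom there were likewise 5 lower and 0 higher, but with limma voom TUBAL3 (log2 fold change -1.22, adjusted p = 0.00243) and TUBB1 (-1.24, 0.00271) were past the fold threshold too. Each of the 5 had an adjusted p past 0.05 in at least 2 of the 4 fits that leave out a library, and TUBB1 in all of them. TUBAL3 lies on chromosome 10, where the median log2 fold change of 593 genes was -0.35, and TUBB1 on chromosome 20, where it was 0.39, while the medians of the chromosomes of the 10 tubulin genes lay between -0.01 and 0.12. TUBA3D, TUBA3E and TUBA8 were under the filter, and TUBA3C was not analysed here.

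The γ-tubulin ring complex, the template on which microtubules start, had 10 genes tested, of which 2 were lower by the adjusted p and 0 higher, against 10.5% and 16.3% of all genes, at a median log2 fold change of -0.09. These were TUBGCP2, a core subunit, at -0.35 (limma adjusted p = 0.0283), and NEDD1, which anchors the complex to spindles, at -0.37 (adjusted p = 0.0341). TUBGCP2 also lies on chromosome 10. TUBGCP6 and TUBGCP5 followed at 0.33 (adjusted p = 0.0717) and 0.27 (adjusted p = 0.0893). At an unadjusted p under 0.05 there were 2 higher and 2 lower, and with limma voom 2 higher (TUBGCP6 and TUBGCP5) and 3 lower, the additional one being MZT1. TUBGCP2 was past 0.05 in all 4 fits that leave out a library (0.0559 to 0.190) and NEDD1 in 3 of them. With the trends on GC content, length and level removed, NEDD1 was at -0.20 (adjusted p = 0.139).

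The tubulin folding list held the prefoldin subunits, the cofactors TBCA to TBCE that join α to β, and the genes TBCEL and ARL2. It had no gene of 13 with an adjusted p under 0.05 in the limma fit or with limma voom. At an unadjusted p under 0.05 there was 1 higher and 1 lower. Single genes were under 0.05 in other settings, namely PFDN2 with upper-quartile scaling (adjusted p = 0.0423) and with the trends removed (0.0458), PFDN1 after rescaling to TPM (0.0498), TBCA with the trends removed (0.0484) and VBP1 in 1 fit that leaves out a library (0.0388). The 4 with the smallest adjusted p were PFDN2 (log2 fold change -0.28, adjusted p = 0.0816), PFDN1 (0.22, 0.0962), TBCD (-0.11, 0.305) and TBCEL (0.14, 0.312). The median of the 13 log2 fold changes was 0.02. Of the autoregulation genes, TTC5 was at 2.16 and 2.41 FPKM in TF1-BA and 1.84 and 1.73 FPKM in TF1-BAR, a log2 fold change of -0.28 that missed the threshold (limma adjusted p = 0.125, and 0.0370 with limma voom). SCAPER was at 0.12 (adjusted p = 0.395) and CNOT11, the CCR4-NOT subunit that SCAPER binds, at 0.07 (adjusted p = 0.410).

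Of the 18 genes tested that modify tubulin, 4 were higher and 1 lower by the adjusted p, against 16.3% and 10.5% of all genes, and 6 were higher and 0 lower with limma voom, which added TTL and TTLL5. VASH1, which removes the C-terminal tyrosine, was the single one called. It was at 3.10 and 2.76 FPKM in TF1-BA and 7.00 and 8.31 FPKM in TF1-BAR, without overlap. Its log2 fold change was 1.25 ± 0.117 (SE, limma adjusted p = 0.00603), and it was called higher in all 10 alternative settings and without any 1 library. Its partner SVBP was at 0.05 (adjusted p = 0.756) and TTL, which puts the tyrosine back, at 0.24 (adjusted p = 0.105, and 0.0343 with limma voom).

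The paper reports unchanged SETD2 mRNA by qRT-PCR and, by Western blot, less SETD2 protein in TF1-BAR. In the sequencing data, SETD2 RNA was at 9.45 and 9.11 FPKM in TF1-BA and 12.1 and 12.4 FPKM in TF1-BAR. The RNA was thus higher in both TF1-BAR libraries, by a log2 fold change of 0.38 ± 0.070 (SE, limma adjusted p = 0.0213). Its adjusted p rose to as much as 0.152 when 1 library was left out, and 3 of these 4 fits, those without TF1-BA replicate 1, TF1-BA replicate 2 or TF1-BAR replicate 2, were past 0.05. ATAT1, which acetylates the same lysine, was at 0.48 (adjusted p = 0.0439), and HDAC6, which removes the acetyl group, at 0.16 (adjusted p = 0.289). The glycylase gene TTLL3 was at 0.53 (adjusted p = 0.0269), and the glutamylase gene TTLL1 fell by 0.35 on the log2 scale (adjusted p = 0.0442). ATAT1 and TTLL1 were each under 0.05 in 6 of the 10 alternative settings and in none of the 4 fits that leave out a library, where the adjusted p was 0.0861 to 0.205 and 0.0691 to 0.222. TTLL3 was past 0.05 in 3 of these 4 fits, at up to 0.148. With limma voom TTLL1 was at an adjusted p of 0.0721, and with the trends on GC content, length and level removed ATAT1 was at 0.0837 and TTLL3 at 0.0553. RNA levels do not measure the modification itself.

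**Figure D4:**
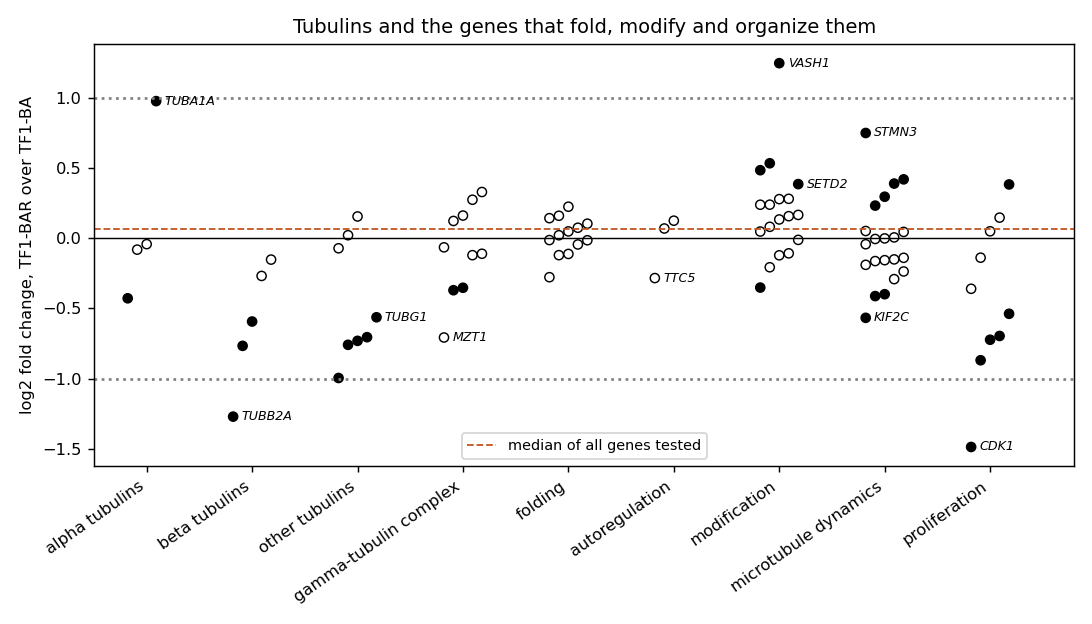
log2 fold change, TF1-BAR over TF1-BA, of every gene tested in the α- and β-tubulin lists and in 7 related lists, with filled points for an adjusted p under 0.05, dotted lines at -1 and 1, and the median of all genes tested as a dashed line. Other tubulins show 5 filled points, all under 0, and the folding list shows none.

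Of 21 genes tested that set microtubule growth and shrinkage, 5 were higher and 3 lower by the adjusted p, against 16.3% and 10.5% of all genes. None was past the fold threshold. The depolymerising kinesin KIF2C was at 78.2 and 76.9 FPKM in TF1-BA and 53.5 and 50.9 FPKM in TF1-BAR, a log2 fold change of -0.57 (limma adjusted p = 0.00714). STMN3, which sequesters tubulin dimers, was at 26.1 and 24.1 FPKM and 39.5 and 45.7 FPKM, a log2 fold change of 0.75 (adjusted p = 0.0100). MAPRE1, the end-binding protein EB1, was at 0.39 (adjusted p = 0.0113) and MAP4, which stabilises microtubules, at -0.41 (adjusted p = 0.0198). MAPRE1 and STMN3 lie on chromosome 20, where the median log2 fold change was 0.39. Without TF1-BA replicate 1 or TF1-BA replicate 2 each of these 4 genes was past 0.05, with an adjusted p of up to 0.0705 for KIF2C, 0.0717 for STMN3, 0.112 for MAPRE1 and 0.146 for MAP4, and MAP4 also without TF1-BAR replicate 2 (0.0628). STMN1, which encodes another tubulin-sequestering protein, was at -0.19 (adjusted p = 0.184).

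Of 10 proliferation genes tested, 5 were lower and 1 higher by the adjusted p, against 10.5% and 16.3% of all genes. CDK1, the kinase that drives entry into mitosis, was called lower, from 41.4 and 35.7 FPKM in TF1-BA to 15.04 and 11.9 FPKM in TF1-BAR, a log2 fold change of -1.49 (limma adjusted p = 0.00595). MKI67, BUB1 and CCNA2 were at -0.87, -0.72 and -0.54, and PCNA was at 0.38 (adjusted p = 0.0356). MKI67 and CDK1 lie on chromosome 10, and PCNA on chromosome 20. CDK1 and MKI67 stayed under 0.05 without any 1 library. PCNA, the single gene higher, was under 0.05 in 6 of the 10 alternative settings and in 1 of the 4 fits that leave out a library (up to 0.194). CCNA2 was under it in 1 of these fits (up to 0.133) and BUB1 in 2 (up to 0.0556). The part of proliferation in the tubulin levels was not tested. Over the 7 related lists together, the 10 genes higher and 16 lower by the adjusted p became 1 and 2 without TF1-BA replicate 1 or without TF1-BA replicate 2, and 3 and 9 without TF1-BAR replicate 2. The counts over all genes fell as well in these 3 fits, as given for the tubulin genes.

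The genes whose levels over the 4 libraries were most like those of TUBA1A were PROCR, SIGLEC10, BAIAP2-AS1, STYK1 and EPAS1, by the root mean square difference of centred log2(FPKM + 0.5), which ran from 0.0181 to 0.0282. PROCR was at 7.52 and 7.55 FPKM in TF1-BA and 14.7 and 15.8 FPKM in TF1-BAR. Among those most like TUBB2A were PLIN2, MT-TP, CDKN2B and ANXA1, with differences from 0.0574 to 0.0689. PLIN2 was at 39.5 and 42.2 FPKM in TF1-BA and 16.3 and 16.7 FPKM in TF1-BAR. Over 4 libraries in 2 groups, this likeness mostly compares the size of 1 change.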

How the data were processed

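The authors made 2 libraries per cell line with a NEBNext Ultra kit and read them as 150-bp pairs. Per the labels and methods, the authors mapped the reads to GRCh38 with TopHat2 2.0.13, ran Cufflinks, Cuffmerge and Cuffdiff with default parameters, and deposited FPKM per gene for each library, without log transformation. The annotation release, and any setting of strand other than the default, are not given in the sources used here. Column names gave the sample, and labels gave the cell line.

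Fragments were recovered as whole numbers, within 0.001 fragments in all libraries, from a search over library size and gene length. Of 30853 genes above 0, 14220 were whole at the GENCODE 44 exon length and 16632 at a fitted length, while 1 was at neither. They were used for depth and in alternatives, and cover counting error only. A gene's fragments may be a multiple of the smallest whole numbers where the depth is low.

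The test was limma (version 3.58.1, R 4.3.3), with lmFit and a trended eBayes, on log2(FPKM + 0.5) of genes whose mean reached 0.5 FPKM. The method was also run on simulated data with independent libraries and the same spread setting for all genes. That setting does not cover libraries that may come from a shared culture, as here. Adjustment followed Benjamini and Hochberg over all genes tested, and the thresholds are those of the study's methods. A fold change on this scale understates that of low genes. The 10 genes were all named. From the other lists SETD2, genes past both thresholds and the 4 with the smallest adjusted p were named, and genes named beyond these (TUBB1, TTLL1, STMN1, SVBP, TTL, HDAC6, PCNA, MZT1, TBCA, VBP1, TTLL5) were chosen after their values were seen. Likeness was searched among genes with a mean of at least 5 FPKM. Some marker and likeness genes and a coding sequence are not reported here. The genes and lists were chosen with earlier results of these data known. Alternatives were other pseudocounts, filters, scalings and variance models, the replicate number as a block, leaving out each library, and, chosen after seeing the data, limma voom on the fragments, removal of trends on GC content, length and level, and other lengths.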

Additional observations from a re-analysis of the deposited data

How the results depend on the processing

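Of the log2 fold changes of the 9 tubulin genes, none with an adjusted p under 0.05 changed direction or lost it in the alternatives that kept all 4 libraries. Changes of direction were limited to small differences. TUBA4A reached 0.0248 after rescaling to TPM and ranged from -0.10 to 0.0196 when 1 library was left out, being above 0 without TF1-BA replicate 1 or TF1-BAR replicate 1. TUBA1B ranged from -0.16 to 0.00178, the latter without TF1-BAR replicate 1. CNOT11 reached -0.0228 with upper-quartile scaling. The share of TUBA1B in α-tubulin, TF1-BAR over TF1-BA, was 0.989 with the MANE Select length and 0.979 to 1.04 when 1 library was left out, and that of TUBA4A was 0.999 to 1.08.

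The number of the 10 genes called higher was 1 in place of 0 (TUBA1A) with a pseudocount of 0.1 FPKM, after rescaling to TPM and with limma voom, and 0 to 1 when 1 library was left out. The number lower by the adjusted p ranged from 1 to 4 when 1 library was left out. The log2 fold change of SETD2 ranged from 0.36 to 0.41 in these fits, in which a lone library is assumed to vary like the other group. Over the 7 related lists, 1 gene was called lower, which became 3 with a pseudocount of 0.1 FPKM and with limma voom, 2 with upper-quartile scaling, quantile normalization or the trends removed, and 1 to 2 with a library left out. By the adjusted p, 10 were higher, which became 4 with no filter and 6 with upper-quartile scaling or without the trend of the variance, and 1 to 7 with a library left out. By the same measure 16 were lower, which became 7 with no filter and 10 without the trend, and 2 to 15 with a library left out. Counts over all genes moved the same way in these settings. The 263 called lower became 362 with a pseudocount of 0.1 FPKM and 380 with limma voom. They became 318 with upper-quartile scaling, 338 after quantile normalization and 327 with the trends removed. By the adjusted p, 2537 higher and 1630 lower became 851 and 595 with no filter, and 1928 and 1160 without the trend. With upper-quartile scaling, 1892 were higher. The no-filter fit tests 30853 genes in place of 15519. In the other cases the cause was not tested.

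The titles number the libraries of each cell line 1 and 2, and same-numbered libraries deviated together with a correlation of 0.0646. With 2 libraries a line, this cannot show whether same-numbered libraries shared a batch. With the replicate block, 5 tubulin genes were lower by the adjusted p in place of 4, the additional one being TUBB (adjusted p = 0.0321), and SETD2 kept an adjusted p of 0.0342. The block left the other counts of called tubulin genes as they were.

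With 2 libraries a cell line, the smallest difference that can be told from the spread is set by 2 residual degrees of freedom per gene and the spread shared across genes. The 2 libraries of a line differed beyond sampling noise, chi-square over its degrees of freedom being 3.94 in TF1-BA and 6.45 in TF1-BAR. Shared sequence limits the separate levels of TUBB2A, TUBB2B and TUBB3 and, less, those of TUBA1A, TUBA1B and TUBA1C, and depth limits that of TUBB3.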
